A study of Rattus norvegicus with 6 samples.

Results

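The genes described here are imprinted growth regulators other than Cdkn1c and Igf2, a named group of 10 genes made of Nnat, Peg3, Peg10, Dlk1, Meg3, Plagl1, Mest, Grb10, Ndn and Impact. They were taken by gene name from the count table of 32883 genes, in which 8 of the 10 names have a row. Peg10 and Meg3 matched no gene name and were not analysed here. Primary oligodendrocyte precursor cells (OPCs), the glial progenitors that form myelinating oligodendrocytes, were purified by shaking from mixed cultures of the cortex of newborn Sprague Dawley rats. One group received 5 µM ZJU-37, an inhibitor of the kinase RIPK1 derived from Nec-1s, and the other its solvent DMSO. The labels give 36 h of treatment, with 3 libraries per group. The study's methods call them biological repeats and a legend calls them plate wells, so the p-values measure the spread between these 3 libraries, which may be technical.

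An imprinted gene is expressed mainly from the copy inherited from one parent. Marks laid down in the germ line, such as DNA methylation, set which copy is used. Many imprinted genes act on fetal growth, on stem and progenitor cells or on the brain. Nnat, Peg3, Dlk1, Plagl1, Mest, Ndn and Impact are known as genes expressed from the paternal copy, whereas the parental copy that is used for Grb10 depends on the tissue. Read counts per gene do not separate the parental copies, so imprinting itself was not measured.

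Genes were compared with the quasi-likelihood test of edgeR on the deposited counts, and a gene is said to have risen or fallen where its adjusted p-value was under 0.05 over all 14670 tested genes. Levels are CPM, counts scaled to the library total and by the TMM method. Values of single libraries are given in the order of replicates 1, 2 and 3, and log2 fold changes are ZJU-37 over DMSO. All 8 genes passed the filter on low counts. The libraries held 13935865 to 24097927 counts in all, and 3 counts divided by these totals, before the TMM factor, are 0.124 to 0.215 CPM, a limit from counting error alone. The smallest count of any member in any library was 29, for Dlk1. Of 8 OPC markers 7 were found, and their summed level was 3857 to 4476 CPM with DMSO and 4411 to 6075 CPM with ZJU-37. Of these 7, Pdgfra, Cspg4, Olig1 and Ptprz1 rose and Gpr17 and Sox10 fell. Fewer cells of a type and less RNA per cell cannot be told apart in these bulk samples.

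With ZJU-37, 5 of the 8 genes rose (Mest, Nnat, Dlk1, Ndn and Peg3), 1 fell (Impact) and 2 did not pass the test (Grb10 and Plagl1). Over all tested genes, 15.0% passed the test, 9.43% higher and 5.58% lower with ZJU-37. The median log2 fold change of the 8 genes was 0.70, and that of all tested genes was -0.03. The members were chosen with earlier results of these data known, so these values describe the group and do not test it. Cdkn1c and Igf2, imprinted growth regulators left out of it, both fell (log2 fold changes of -3.95 and -2.01). The libraries of the groups did not overlap in 6 of the 8 genes, the 5 that rose and Impact, beside 35.2% of all tested genes. The summed share of the 8 genes in all counts was 0.128% to 0.146% with DMSO and 0.205% to 0.292% with ZJU-37.

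**Figure D1:**
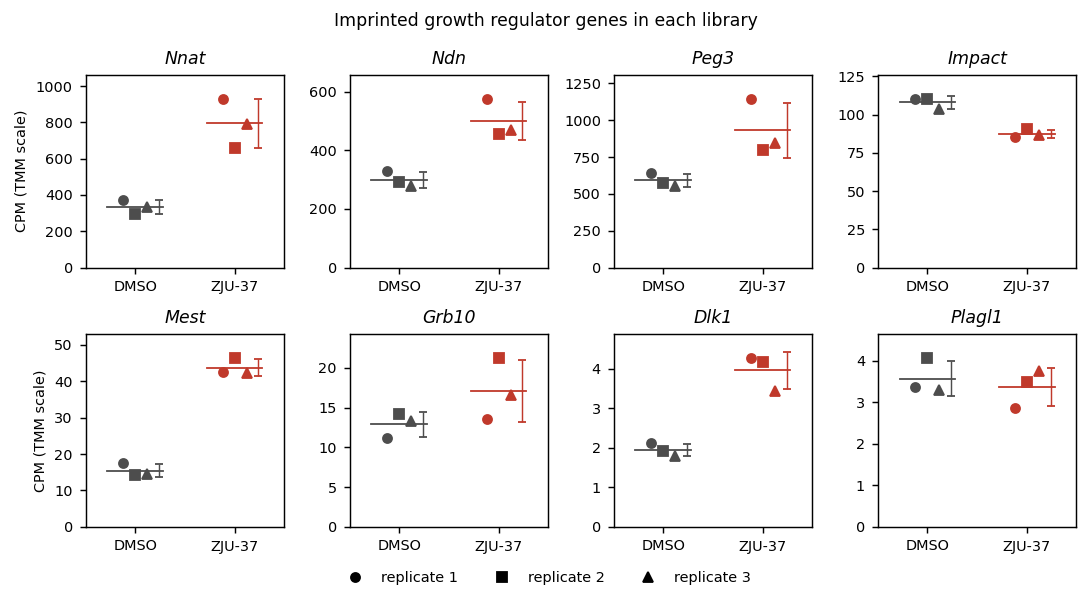
CPM on the TMM scale (vertical axes, starting at 0) of the 8 genes in each of 3 DMSO and 3 ZJU-37 libraries. Symbols mark the replicate number, horizontal lines the mean and error bars the SD. The groups do not overlap in Nnat, Ndn, Peg3, Impact, Mest and Dlk1, and overlap in Grb10 and Plagl1.

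The replicate numbers of the libraries paired them (r between 0.31 and 0.39 for deviations of same-numbered libraries), and a fit with the replicate number as a block was run beside the first. With the block, 6 of the 8 genes rose and 1 fell, against 32.1% of all tested genes, 16.2% higher and 15.9% lower. The gene that this fit adds is Grb10. In each of the 5 genes that rose, ZJU-37 was higher in 3 of 3 pairs, which must hold where the groups do not overlap.

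The bases just before the transcription start of the genes that rose are shown so that the 4 of them with a promoter entry can be set side by side. They are the 250 bases before the RefSeq gene start in assembly GRCr8, 5′ to 3′ on the strand of the gene, in lower case with every CpG, the dinucleotide that carries the DNA methylation of imprinted regions, in capitals. They lie at chr4:60321564-60321813 (Mest), chr6:134192347-134192596 (Dlk1), chr1:125260809-125261058 (Ndn) and chr1:76130744-76130993 (Peg3), each on the plus strand.
Mest: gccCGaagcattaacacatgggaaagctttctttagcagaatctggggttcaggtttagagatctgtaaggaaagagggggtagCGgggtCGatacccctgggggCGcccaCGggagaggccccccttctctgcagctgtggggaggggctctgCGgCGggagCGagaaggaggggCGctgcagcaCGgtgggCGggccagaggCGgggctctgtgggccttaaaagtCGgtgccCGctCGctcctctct
Dlk1: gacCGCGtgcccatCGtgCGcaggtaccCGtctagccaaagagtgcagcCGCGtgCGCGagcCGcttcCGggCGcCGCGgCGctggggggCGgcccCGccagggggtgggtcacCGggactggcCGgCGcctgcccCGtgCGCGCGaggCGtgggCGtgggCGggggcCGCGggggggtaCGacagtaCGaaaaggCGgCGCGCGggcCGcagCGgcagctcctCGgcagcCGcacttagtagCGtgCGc
Ndn: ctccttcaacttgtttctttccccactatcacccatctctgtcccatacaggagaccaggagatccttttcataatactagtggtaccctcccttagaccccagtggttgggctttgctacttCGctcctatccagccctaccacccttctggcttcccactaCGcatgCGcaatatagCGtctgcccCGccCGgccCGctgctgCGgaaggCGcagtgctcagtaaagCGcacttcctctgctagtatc
Peg3: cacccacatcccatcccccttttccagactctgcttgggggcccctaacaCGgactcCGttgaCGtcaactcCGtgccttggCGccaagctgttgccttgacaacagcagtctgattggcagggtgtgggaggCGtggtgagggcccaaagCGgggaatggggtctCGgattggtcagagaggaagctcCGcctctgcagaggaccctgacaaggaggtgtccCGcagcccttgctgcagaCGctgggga

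These stretches held 15 CpGs for Mest, 41 for Dlk1, 10 for Ndn and 11 for Peg3. Grb10, which did not pass the test, had 38 and Plagl1 had 23, whereas Impact, which fell, had 3. The median over these 7 genes was 15 CpGs, beside 16 for the promoters of 10396 tested genes and 6 for all 27457 promoters of the table. CpG number did not separate the genes that rose from the others, since Grb10 and Plagl1 lie within the range of the 4 that rose. The letters TGCCGC, bound in methylated form by the imprint maintenance factor Zfp57, were searched on both strands (GCGGCA on the other). They were found in 2 of the 7, Dlk1 and Plagl1, beside 15.3% of the promoters of tested genes and 9.23% of all promoters. Only 1 RefSeq start per gene was used here, and other promoters of Mest, Grb10 and Plagl1 were not examined.

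Mest encodes a protein with the alpha/beta hydrolase fold and is a classical paternally expressed gene of mesoderm and brain. The row (ENSRNOG00000048088) lies on chromosome 4 from 58053041 to 58063138 in the coordinates of the deposited table, whose genome build is not given in the sources used here, as for all positions below other than those of promoters. Its level was 17.7, 14.2 and 14.6 CPM with DMSO, and 42.4, 46.4 and 42.4 CPM with ZJU-37. The ZJU-37 libraries lay close together and far above the DMSO libraries. Mest rose by a log2 fold change of 1.50 (95% interval 1.25 to 1.75), from 15.5 ± 1.91 to 43.8 ± 2.30 CPM (SD, n = 3 libraries each), with an adjusted p-value of 3.98e-04 from edgeR. This was the largest increase of the group and ranked 114 of all tested genes from the top by fold change. The call held with each library left out, with log2 fold changes between 1.44 and 1.60.

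Nnat encodes neuronatin, a small membrane proteolipid of the endoplasmic reticulum that is abundant in the developing brain. The row (ENSRNOG00000024923) lies on chromosome 3 from 154043873 to 154046330. Nnat had 372, 293 and 331 CPM with DMSO, and 931, 659 and 792 CPM with ZJU-37. Replicate 1 was the highest and replicate 2 the lowest in both groups, and the lowest ZJU-37 library was well above the highest DMSO library. Nnat rose by 1.26 on the log2 scale (95% interval 0.91 to 1.61), from 332 ± 39.3 to 794 ± 136 CPM (SD, n = 3 libraries each; edgeR adjusted p = 0.00212). Leaving out each library in turn gave log2 fold changes of 1.15 to 1.41, and the call held each time. A miRNA row inside the gene, Gm23134, had 0 counts in all libraries.

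Dlk1 encodes a transmembrane protein of the Delta and Notch family that holds back the differentiation of preadipocytes and other progenitors. The row (ENSRNOG00000019584) lies on chromosome 6 from 133552821 to 133583751. It was a scarce transcript, with 29, 34 and 34 counts with DMSO and 79, 86 and 83 counts with ZJU-37. These are 2.12, 1.92 and 1.81 CPM with DMSO and 4.27, 4.17 and 3.43 CPM with ZJU-37. Every ZJU-37 library exceeded every DMSO library, although the level stayed low in both groups. Dlk1 rose by 1.02 on the log2 scale (95% interval 0.56 to 1.48; edgeR adjusted p = 0.0145). The call was lost without DMSO replicate 2 (adjusted p = 0.0576) or DMSO replicate 3 (0.0572) in edgeR, with log2 fold changes of 1.01 and 0.97.

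Ndn encodes necdin, a MAGE family protein known as a growth suppressor of postmitotic neurons. The row (ENSRNOG00000010146) lies on chromosome 1 from 122981755 to 122983351. Ndn had 330.4, 292 and 278 CPM with DMSO, and 577, 457 and 469 CPM with ZJU-37. The groups were apart, with replicate 1 highest in both. Ndn rose by 0.74 on the log2 scale (95% interval 0.47 to 1.01; edgeR adjusted p = 0.00663). With each library left out in turn it remained past the limit, at log2 fold changes of 0.65 to 0.83.

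Peg3 encodes a large zinc finger protein that binds DNA and is expressed in the brain and in progenitor cells. The row (ENSRNOG00000014791) lies on chromosome 1 from 70222964 to 70237443. Peg3 had 644, 576 and 554 CPM with DMSO, and 1147, 801 and 844 CPM with ZJU-37. ZJU-37 replicate 1 stood above the other two, yet the lowest ZJU-37 library exceeded the highest DMSO library. Peg3 rose by 0.65 on the log2 scale (95% interval 0.30 to 1.01; edgeR adjusted p = 0.0285). The call was lost in edgeR without DMSO replicate 1 (adjusted p = 0.0573), DMSO replicate 2 (0.102), DMSO replicate 3 (0.0995) or ZJU-37 replicate 3 (0.0514). The antisense row Apeg3, inside Peg3, had 0 counts in all libraries. Since the strand setting is not given in the sources used here, this 0, like that of the miRNA row inside Nnat on its other strand, is no measure of the overlapping row.

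Impact encodes a protein that binds GCN1 and restrains the activation of GCN2, a kinase that responds to amino acid shortage. It was the single member that fell. The row (ENSRNOG00000045844) lies on chromosome 18 from 4325875 to 4346769. Impact had 110.4, 110.0 and 103 CPM with DMSO, and 85.0, 90.2 and 86.4 CPM with ZJU-37. The difference was small, but the libraries of each group lay close together. Impact fell by 0.31 on the log2 scale (95% interval -0.44 to -0.17, edgeR adjusted p = 0.0142). The groups did not overlap, so Impact was also lower in 3 of 3 pairs. In edgeR the call was lost without DMSO replicate 2 (adjusted p = 0.0652) or ZJU-37 replicate 3 (0.0704).

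Grb10 encodes an adaptor protein that binds the insulin and IGF1 receptors and dampens their signals. The row (ENSRNOG00000004290) is a minus strand gene at chromosome 14, from 92021851 to 92117923. Grb10 had 11.2, 14.2 and 13.4 CPM with DMSO, and 13.5, 21.2 and 16.6 CPM with ZJU-37. The groups overlapped, but ZJU-37 was higher in 3 of 3 pairs. The log2 fold change was 0.40 (95% interval -0.04 to 0.84; edgeR adjusted p = 0.215), and with the replicate block 0.39 (0.15 to 0.63; adjusted p = 0.0191), which passed the limit. With each library left out, the log2 fold change without the block ran from 0.24 (without ZJU-37 replicate 2) to 0.56 (without ZJU-37 replicate 1).

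Plagl1 encodes a zinc finger transcription factor that acts on other imprinted genes and can arrest the cell cycle. The row (ENSRNOG00000025587) lies on chromosome 1 from 7252349 to 7259035. Plagl1 had 3.36, 4.07 and 3.29 CPM with DMSO, and 2.87, 3.49 and 3.76 CPM with ZJU-37. The groups overlapped, and the difference was negative in 2 pairs and positive in 1. The log2 fold change was -0.08, with a 95% interval of -0.55 to 0.38 (edgeR adjusted p = 0.829), and its sign turned when DMSO replicate 2 (0.023) or ZJU-37 replicate 1 (0.038) was left out.

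**Figure D2:**
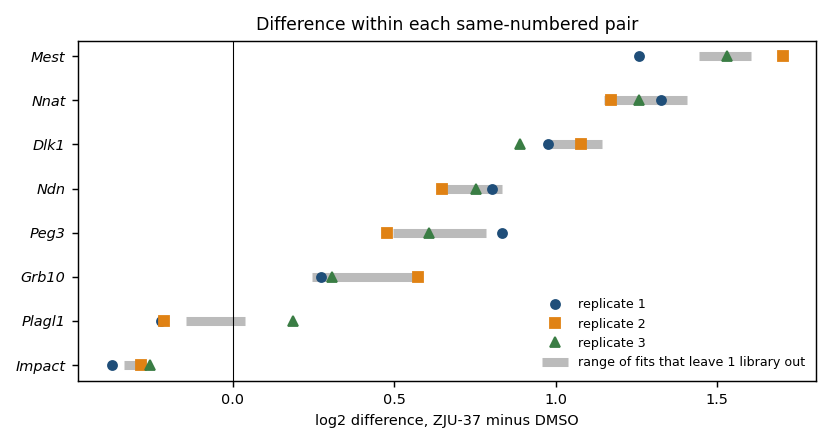
Log2 difference, ZJU-37 minus DMSO (horizontal axis), within each same-numbered pair of libraries (symbols) for the 8 genes, beside the range of fits that leave 1 library out (grey bars). All 3 pairs lie above 0 for Mest, Nnat, Dlk1, Ndn, Peg3 and Grb10 and below 0 for Impact, and Plagl1 lies on both sides of 0.

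Levels were compared between genes as FPKM, which the authors deposited and which divides by gene length. With DMSO the order was Nnat (262 ± 29.7 FPKM, SD, n = 3 libraries), Ndn (187 ± 16.3), Peg3 (69.8 ± 5.30), Impact (31.9 ± 1.22), Mest (15.4 ± 1.84), Grb10 (2.47 ± 0.31), Dlk1 (1.21 ± 0.095) and Plagl1 (0.77 ± 0.096). No neighbours in this order overlapped over the 3 libraries. Nnat ranked at percentile 98.2 and Ndn at 97.4 of tested genes by mean FPKM with DMSO, whereas Dlk1 and Plagl1 were at 11.5 and 7.85. With ZJU-37, Mest (43.5 ± 2.11 FPKM) passed above Impact (25.8 ± 0.64), and Grb10 (3.25 ± 0.71) and Dlk1 (2.45 ± 0.30) overlapped over the libraries. The group thus spans abundant and scarce transcripts, and genes of both kinds rose.

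Cdkn1c and Igf2, the imprinted growth regulators left out of the group, both fell. Cdkn1c, which blocks cyclin-dependent kinases, had 176 ± 12.7 CPM with DMSO and 11.4 ± 2.46 CPM with ZJU-37 (SD, n = 3 libraries each), and fell by 3.95 on the log2 scale (edgeR adjusted p = 1.32e-04). Igf2, a growth factor, fell from 8.51 ± 0.35 to 2.10 ± 0.097 CPM, a log2 fold change of -2.01 (edgeR adjusted p = 4.30e-04). Both calls held with each library left out.

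A wider list of 70 other imprinted genes, Cdkn1c and Igf2 included, was written from general knowledge, and 58 of its names were found. Of its 45 tested rows, 5 rose, 4 fell and 36 did not pass the test. Over all tested genes 9.43% rose and 5.58% fell. The median log2 fold change of the list was -0.02, beside -0.03 for all tested genes. With the replicate block 10 rose and 6 fell, beside 16.2% and 15.9% of all tested genes. The 5 that rose were Magel2, Nap1l5, Cobl, Inpp5f and Gatm, with log2 fold changes of 1.39, 1.13, 1.06, 0.93 and 0.52. Magel2, a MAGE family gene of the same cluster as Ndn, had 5.19, 5.08 and 5.20 CPM with DMSO and 19.2, 10.4 and 11.0 CPM with ZJU-37. Nap1l5, of the nucleosome assembly protein family, rose from 88.8 ± 16.4 to 194 ± 12.5 CPM, and Inpp5f, an inositol phosphatase, from 75.0 ± 7.14 to 143 ± 5.63 CPM (SD, n = 3 libraries each). Besides Cdkn1c and Igf2, Trappc9 and Osbpl5, genes of vesicle and lipid transport, fell by 0.32 and 0.35 on the log2 scale. Inpp5f, Nap1l5, Cdkn1c and Igf2 passed the limit with each library left out. Calls were lost for Magel2 without any one DMSO library (edgeR adjusted p = 0.0504 to 0.0578), for Cobl without DMSO replicate 2 or 3 or ZJU-37 replicate 3, and for Gatm without DMSO replicate 2 or 3 or ZJU-37 replicate 1 or 2. Trappc9 lost its call without any one library other than ZJU-37 replicate 3, and Osbpl5 without any one of the 6. Processing choices with all 6 libraries also ended the Osbpl5 call (adjusted p = 0.0513 with DESeq2 size factors in edgeR, 0.0589 with upper quartile scaling, 0.0986 with library size only, 0.0611 without a filter on low counts, 0.0520 in limma-voom, and 0.0806 and 0.0820 in limma on log2 FPKM with 0.1 or 1 added). They ended that of Gatm with DESeq2 size factors in edgeR (0.0527) and in limma on log2 FPKM (0.0532 with 0.1 added and 0.0540 with 1 added).

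**Figure D3:**
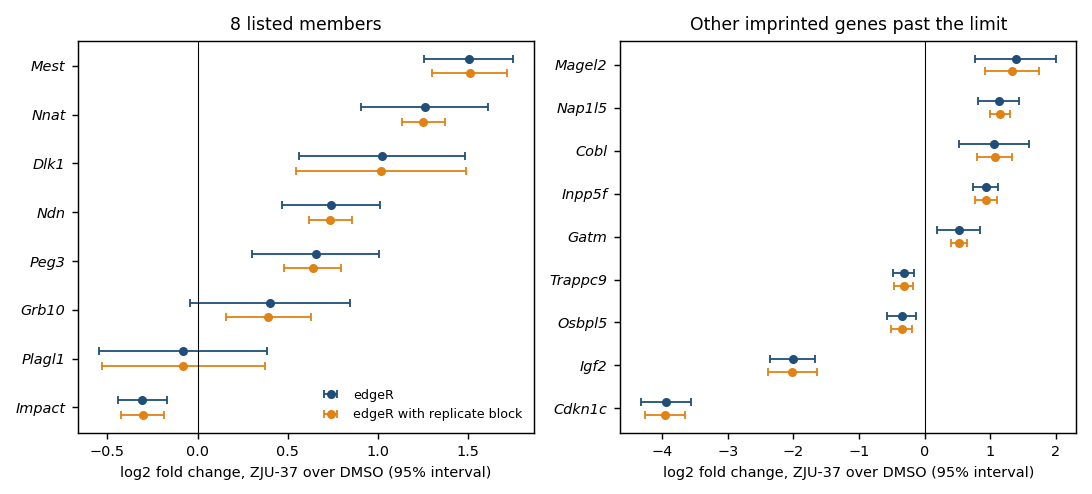
Log2 fold change, ZJU-37 over DMSO, with its 95% interval (horizontal axis) from edgeR without (blue) and with (orange) the replicate block, for the 8 genes (left) and for the other imprinted genes that passed the limit (right). The intervals of Mest, Nnat, Dlk1, Ndn and Peg3 lie above 0 in both fits, and that of Grb10 lies above 0 with the block.

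Imprinted genes lie in clusters, and the genes beside each member were therefore read from the same test. Within 250 kb of the 8 genes lay 118 other rows, of which 29 were tested. In edgeR 5 of them rose, 0 fell and 24 did not pass the limit, while 15.0% of all tested genes passed it, 9.43% higher and 5.58% lower. At an unadjusted p under 0.05, 9 were higher and 1 lower, and 6 were higher and 0 lower in DESeq2. With the replicate block 8 were higher and 4 lower, beside 16.2% and 15.9% of all tested genes. Among the 5 that rose, Magel2 and Cobl were also counted in the wider imprinted list. Beside Ndn, Magel2 at 32.4 kb rose, while Mkrn3 at 79.5 kb and Peg12 at 114.5 kb had log2 fold changes of -0.01 and -0.45 (edgeR adjusted p = 0.982 and 0.440). Beside Mest, Cep41, a gene of a centrosomal protein, at 46.2 kb rose by 0.92 (edgeR adjusted p = 5.21e-04), while Copg2 at 1.70 kb had a log2 fold change of -0.01 (0.944). Beside Nnat, Blcap at 1.77 kb had a log2 fold change of -0.15 (edgeR adjusted p = 0.243), and Ctnnbl1 at 166 kb rose by 0.26 (0.0438). LOC100911769 at 150 kb from Nnat had a log2 fold change of -1.95 (edgeR adjusted p = 0.236, and 0.0295 with the replicate block). Of the tested neighbours nearest to these genes, Magel2 thus rose, and Copg2 and Blcap did not pass the test.

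Beside Peg3, Zim1 at 16.2 kb had a log2 fold change of 0.77 (edgeR adjusted p = 0.0941, and 0.0061 with the replicate block), and Usp29 at 219 kb one of 0.29 (0.366, and 0.0341 with the block). Beside Grb10, Fignl1 at 117 kb rose by 0.80 (edgeR adjusted p = 0.0212) and Cobl at 225 kb by 1.06 (0.0230). Ikzf1 at 154 kb from Grb10 had a log2 fold change of -0.40 (edgeR adjusted p = 0.303, and 0.00108 with the replicate block). Around Dlk1 the 3 tested rows, Mir770, another miRNA row and a long noncoding RNA row, had log2 fold changes of 0.14, -0.03 and 0.00. Of the 9 tested neighbours of Impact and Plagl1, 0 passed the limit in edgeR or DESeq2, 2 had an unadjusted p under 0.05 in edgeR, and 2 passed lower with the replicate block. Without DMSO replicate 2 or 3 or ZJU-37 replicate 3, Fignl1 lost its call, as did Ctnnbl1 without those or ZJU-37 replicate 2, whereas Cep41 passed with each library left out. Ctnnbl1 also lost its call without a filter on low counts (edgeR adjusted p = 0.0531).

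**Figure D4:**
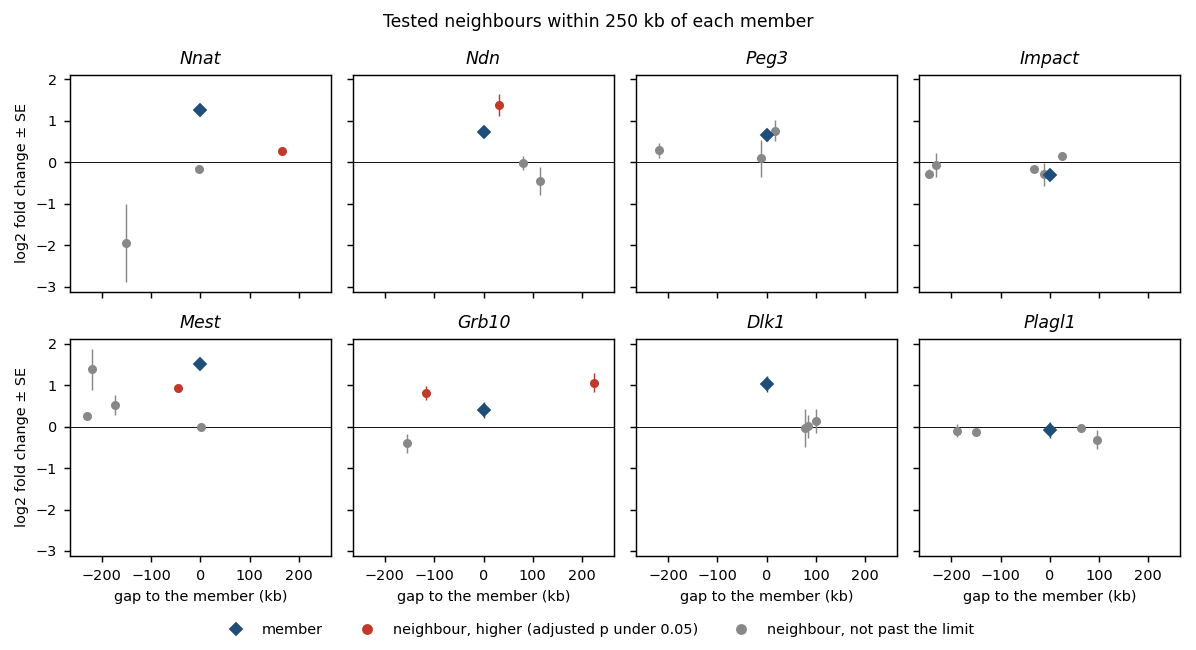
Log2 fold change with its SE (vertical axis) of tested genes within 250 kb of each member, by their gap to it in kb (horizontal axis; negative values are at lower coordinates). Diamonds are the members, red circles the 5 neighbours that rose and grey circles the 24 that did not pass the limit.

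Genes that keep imprints were read as a list of 16, of which 14 rows were tested. Of these 5 rose, 1 fell and 8 did not pass the test, beside 9.43% higher and 5.58% lower over all tested genes. The median log2 fold change of the list was 0.14. Dnmt1, the methyltransferase that copies DNA methylation after replication, rose by 1.08 on the log2 scale, from 168 ± 6.65 to 356 ± 26.4 CPM (SD, n = 3 libraries each; edgeR adjusted p = 3.99e-04). Uhrf1, which brings Dnmt1 to newly copied DNA, rose by 1.29, from 80.7 ± 3.68 to 197 ± 18.1 CPM (edgeR adjusted p = 3.27e-04). These are also genes of dividing cells. Cbx5, Zfp57 and Smchd1 rose by 0.64, 0.58 and 0.34, and Dnmt3a, a methyltransferase that sets new methylation, fell by 0.26 on the log2 scale. DNA methylation was not measured. Leaving out 1 library ended the calls of Cbx5 (DMSO replicate 2), Smchd1 (DMSO replicate 2 or 3), Zfp57 (DMSO replicate 2 or 3, or ZJU-37 replicate 3) and Dnmt3a (any one of the 6). The Dnmt3a call was also lost in edgeR with library size only (adjusted p = 0.0503) or without a filter on low counts (0.0588), and in limma on log2 FPKM (0.0529 with 0.1 added and 0.0539 with 1 added). With the replicate block 7 genes of the list rose and 3 fell, beside 16.2% and 15.9% of all tested genes.

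Of 18 genes listed as receptors, partners or targets of the members, 16 were tested, 1 rose, 1 fell and 14 did not pass the test, against 5 higher and 3 lower with the replicate block. Over all tested genes 15.0% passed the limit, and 32.1% with the block. Adcyap1r1, the receptor of the neuropeptide PACAP and a known target of Plagl1, rose by 0.86 on the log2 scale (edgeR adjusted p = 0.0108), a call lost without DMSO replicate 2 (0.0507). Irs1, the docking protein below the insulin and IGF1 receptors, fell by 0.68 on the log2 scale, from 31.5 ± 4.59 to 19.6 ± 0.88 CPM (SD, n = 3 libraries each; edgeR adjusted p = 0.00996).

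Markers of other cells and states were read beside these results. All 8 markers of dividing cells rose, with a summed level of 795 to 854 CPM with DMSO and 1735 to 2100 CPM with ZJU-37. Of 8 oligodendrocyte markers 2 fell (Myrf and Cnp) and 0 rose in edgeR, against 5 lower and 0 higher in DESeq2 and 5 lower at an unadjusted p or with the replicate block, with a summed level of 11087 to 22050 CPM and 4666 to 9761 CPM. Of 8 neuron markers 0 passed the test in edgeR or DESeq2, with 1 lower at an unadjusted p under 0.05 and 2 lower with the replicate block, and their summed level was 727 to 938 CPM with DMSO and 644 to 853 CPM with ZJU-37. Astrocyte markers had 1 of 8 lower (5 lower and 1 higher with the replicate block) and summed to 517 to 900.2 CPM and 359 to 607 CPM, and microglia markers had 0 of 8 past the limit (0 at an unadjusted p and by DESeq2, and 3 lower with the replicate block) and summed to 1666 to 2861 CPM and 1209 to 2469 CPM. Fibroblast and pericyte markers had 0 of 7 past the limit (0 at an unadjusted p and by DESeq2, and 2 lower with the block), with sums of 77.1 to 149 CPM and 42.3 to 110.2 CPM, and endothelial markers had 1 of 5 lower, or 2 with the block (21.4 to 25.4 CPM and 14.0 to 19.8 CPM), with Cldn5 at 0 counts in all libraries. The neuron, astrocyte, microglia, fibroblast and endothelial lists did not rise with the 5 members that did. The dividing cell list rose. In the OPC list 4 of 7 rose and 2 fell, with a median log2 fold change of 0.54. The part of dividing cells and of oligodendrocyte lineage stage in the levels of the members was not tested.

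The genes most like Mest and Nnat, the members with the smallest p-values, were sought among 11651 genes by Pearson's r of log2 CPM over the 6 libraries, which share the treatment difference. For Mest these were Chrm3, Mageh1 and Nme1 (r between 0.998 and 0.999), and for Nnat Pde8b, Hecw2 and Myh10 (r of at least 0.999). Genes needed a mean of at least 5 CPM over the 6 libraries. Chrm3 averaged 3.92 CPM with DMSO and 19.1 CPM with ZJU-37, and so reached that minimum only through the ZJU-37 group.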

How the data were processed

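RNA was selected with poly-T beads and libraries were made with the NEBNext Ultra kit. The submitters' processing notes name HISAT2 2.0.5, StringTie 1.3.3b and featureCounts 1.5.0, and the authors deposited raw counts per gene, which were neither normalized nor filtered, and FPKM values (counts scaled to gene length and library size). The genome build and the strand setting of the counting are not given in the sources used here. The fold changes and p-values of the authors' own DESeq2 comparison were not used. The methods text gives a treatment shorter than the 36 h of the labels.

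Low counts were removed by filterByExpr, TMM factors ran from 0.981 to 1.04, and the robust quasi-likelihood fit and test of edgeR 4.0.16 (R 4.3.3) covered 3 DMSO and 3 ZJU-37 libraries, with Benjamini-Hochberg adjustment over 14670 genes. Groups came from the labels. The members and the gene lists were chosen with earlier results of these data known. Named genes are the members, Cdkn1c and Igf2, genes of the imprinted, maintenance and partner lists past the limit, and neighbours within 250 kb. For the 2 members with the smallest p, the 3 genes of largest r are also named. Their CPM, averaged across all 6 libraries and not within each group, had to reach 5. Replicate numbers come from the labels. Across genes, which are not independent replicates, deviations from the group means correlated at r = 0.39, 0.31 and 0.33 for the same number and between -0.27 and -0.01 for different numbers. Libraries of a group differed by a chi-square of at least 11.9 per degree of freedom, so none was treated as a duplicate. The edgeR script was tested on simulated data.

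Alternatives were DESeq2 1.42.0, limma-voom and limma 3.58.1 (also on log2 FPKM with 1 or 0.1 added), other normalizations, no filter or a minimum of 10 counts in each library, the replicate block, an adjusted p under 0.01 and leaving out each library. Promoter sequences came from RefSeq, assembly GRCr8, and matched 7 of the 8 genes by symbol.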

Additional observations from a re-analysis of the deposited data

How the results depend on the processing

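Each of the 8 genes was recomputed under 17 alternatives. Of these 136 values 125 kept their direction and their side of the limit, 8 kept their direction and lost the limit, 1 gained it and 2 changed sign. All losses came from leaving out 1 library. Mest, Nnat and Ndn passed the limit in all 17. With a library left out the log2 fold change of Plagl1 ran from -0.14 to 0.038, and was above 0 without DMSO replicate 2 (0.023) and without ZJU-37 replicate 1 (0.038). The count of members past the limit, 6, was 3 at an adjusted p under 0.01, and 3 to 6 with a library left out (3 without DMSO replicate 2). The count of all genes, 2201, was 1053 at an adjusted p under 0.01 and 1306 to 1927 with a library left out, lowest without DMSO replicate 2 (1306) and ZJU-37 replicate 3 (1351). The count of other imprinted genes, 9, was 4 at an adjusted p under 0.01 and 4 to 7 with a library left out (4 without DMSO replicate 2 and 4 without DMSO replicate 3).

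With the replicate block, the pairing by replicate number raised the count of all genes to 4705 (2371 higher and 2334 lower, against 1383 and 818) and that of other imprinted genes to 16. It brought Grb10 past the limit (0.39) and changed the call of no other member. Why the block and the single libraries move these counts was not tested. The lowest counts were those of Dlk1 and Plagl1, 29 and 46 in a library, and whether depth limits their tests was not tested.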
